A study of Homo sapiens with 6 samples.

Results

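The medial ganglionic eminence is the embryonic forebrain territory next to the lateral ganglionic eminence, and 9 of its regulators were followed here in a map of GSX2 binding: NKX2-1, NKX6-2, SHH, LHX6, LHX8, GBX1, GBX2, ZEB2 and MAF. A region belonged to a regulator where its strongest summit lay nearer to the span of that gene than to any other protein-coding gene, with regions formed by joining peaks of the replicates that overlapped by at least 1 bp. By this rule 35 of 15743 regions were assigned to the 9 genes. GSX2, a homeodomain transcription factor of lateral eminence progenitors, was expressed from a doxycycline-inducible TRE3G transgene as the wild-type protein with a 2xFLAG tag in the established human embryonic stem cell line H9, under a protocol for lateral eminence-like progenitors. Induction with 100 ng/mL doxycycline began on day 10 and lasted 12 hours, and FLAG-tagged protein was pulled down with M2 antibody at day 10.5 in 3 replicates. All cells carried the transgene and received doxycycline, so there was 1 group and no contrast. Matching input libraries and expression were not analysed here, so the identity of the cells was not checked against markers. The numbered replicates are not said to be separate cultures, so part of their spread may be technical.

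In the embryonic forebrain, SHH from ventral tissue induces NKX2-1 in the medial eminence, and NKX2-1 turns on LHX6 and LHX8, which guide its progenitors toward cortical interneurons, pallidal neurons and cholinergic neurons. ZEB2 and MAF act later, in migrating and maturing interneurons. GSX2 marks the neighbouring lateral eminence, which gives rise to striatal projection neurons, and homeodomain proteins of its kind bind DNA around a TAAT core.

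Start-site windows are shown for MAF and ZEB2, the regulators at whose start a region lay, and for NKX2-1 as the regulator with the strongest region elsewhere and none at its starts. NKX2-1 has a window at each of 2 annotated starts. The one at the inner start is shown because it holds the core word marked here, and the one at the outer start (chr14:36520183-36520482) held 0 copies of it. Each is RefSeq sequence of GRCh38.p14, the same build as hg38, from 250 bases before to 50 bases after an annotated start, read 5′ to 3′ in the direction of transcription, which is the minus strand for all of them. Capitals mark TAAT and its reverse complement ATTA, which overlap in TAATTA.
MAF, chr16:79600688-79600987: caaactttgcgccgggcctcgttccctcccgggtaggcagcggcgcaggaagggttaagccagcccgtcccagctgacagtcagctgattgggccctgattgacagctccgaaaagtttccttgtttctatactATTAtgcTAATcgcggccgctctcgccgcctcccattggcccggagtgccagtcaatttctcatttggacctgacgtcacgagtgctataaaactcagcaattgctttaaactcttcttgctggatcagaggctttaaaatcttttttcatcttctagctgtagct
ZEB2, chr2:144520070-144520369: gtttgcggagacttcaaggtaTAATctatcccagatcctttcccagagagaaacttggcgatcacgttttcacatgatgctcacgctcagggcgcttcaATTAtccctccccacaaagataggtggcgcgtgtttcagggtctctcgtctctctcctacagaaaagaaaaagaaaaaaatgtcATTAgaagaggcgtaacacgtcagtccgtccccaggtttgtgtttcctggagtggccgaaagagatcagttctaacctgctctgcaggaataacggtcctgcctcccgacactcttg
NKX2-1, chr14:36519507-36519806: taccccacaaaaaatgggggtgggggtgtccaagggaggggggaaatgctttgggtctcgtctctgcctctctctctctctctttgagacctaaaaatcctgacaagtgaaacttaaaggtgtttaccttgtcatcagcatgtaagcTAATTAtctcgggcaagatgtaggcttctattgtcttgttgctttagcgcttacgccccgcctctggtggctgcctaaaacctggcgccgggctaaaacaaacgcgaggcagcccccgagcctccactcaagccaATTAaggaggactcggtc

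The core is a common word. TAAT or ATTA stood in 77.7% of the 215 RefSeq start windows that overlapped a region with a peak in every replicate, against 50.3% of all 34789 distinct windows. TAATTA stood in 15.3% of the overlapping windows, against 4.86% of all. Promoter windows were found for 8 of the 9 regulators, 12 windows in all. Of these, the NKX2-1 window printed here was the one with TAATTA, and it held no peak in any replicate.

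The share of regions that recurred in all replicates was near that over the genome. A peak was present in all 3 replicates at 6 of the 35 regions, called shared here (17.1%, 95% Wilson interval 8.10 to 32.7%, counting error only), against 22.5% of all regions. Another 10 regions had a peak in 2 replicates and 19 in 1, so 16 of 35 (45.7%) had at least 2, against 45.1% of all regions. The interval of the share in all replicates spans the value over the genome. It treats the regions as independent, although 18 of the 35, of which 1 was shared, were at ZEB2. The side on which these genes stood depended on the replicates used. Without replicate 3, 12 of 27 regions had a peak in both remaining lists (44.4%, against 35.8% of all regions). Without replicate 1 it was 7 of 30 (23.3%, against 36.5%), and without replicate 2 it was 9 of 29 (31.0%, against 37.7%). Replicates 1, 2 and 3 gave 20, 19 and 18 peaks at these genes, which is 0.203%, 0.254% and 0.197% of their 9859, 7471 and 9122 peaks. Here an interval with several summits counted as 1 peak, on chromosomes 1 to 22 and X. The deposited lists held 10326, 7779 and 9503 summits. Depth is not known from peak lists, and a peak missing from a list may lie just under the caller's threshold.

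Regions were present at 6 of the 9 genes, and shared ones at 5 of them. NKX2-1, SHH, LHX8 and ZEB2 had 1 shared region each and MAF had 2, against a background of 12.3% of 19974 protein-coding genes with at least 1 shared region. GBX2 had regions but no shared one, and NKX6-2, LHX6 and GBX1 had no region, against 32.6% of protein-coding genes with a region of any replicate. The number of regions at a gene depends on the length of its territory, the sequence closer to it than to any other protein-coding gene. This was 1824 kb for ZEB2, 868 kb for MAF, 436 kb for SHH, 253 kb for LHX8 and 132 kb for NKX2-1. It was 34.4 kb for GBX2, 32.0 kb for LHX6, 25.5 kb for GBX1 and 14.1 kb for NKX6-2, so the 3 genes without a region had the shortest territories. Over their joint territory of 3.62 Mb the 9 genes had 9.67 regions and 1.66 shared regions per Mb, against 5.20 and 1.17 per Mb over all protein-coding genes. ZEB2 alone held 51.4% of the regions. Without it the 8 other genes had 9.47 regions and 2.79 shared regions per Mb, on 5 shared regions.

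**Figure D1:**
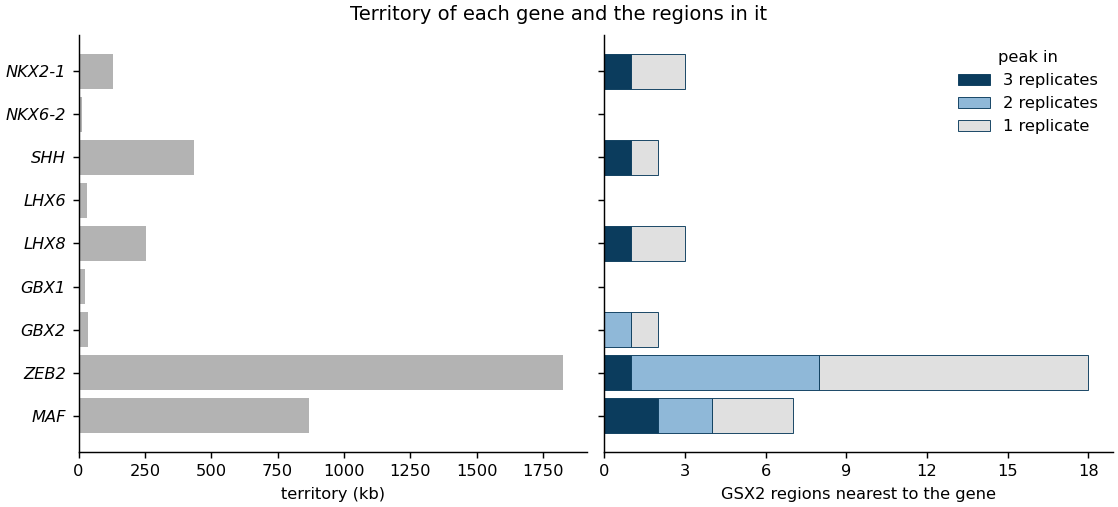
Territory of each of the 9 genes (left, kb) and number of GSX2 regions nearest to it (right), divided by the number of replicates with a peak. ZEB2, with a territory of 1824 kb, had 18 regions, and the 3 genes with none had territories of 32.0 kb or less.

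Among the patterning genes, NKX2-1, the homeodomain determinant of the medial eminence, had the strongest region. It lay 73.6 kb beyond the 3′ end of the gene (chr14:36442408-36443706), with fold enrichment of 28.4 in replicate 1, 24.7 in replicate 2 and 29.5 in replicate 3 (27.5 ± 2.5, SD, n = 3). Fold enrichment is the authors' value for each peak, over the caller's background, and is used here to describe and rank. The −log10 q values were 83.3, 70.7 and 82.0. All 3 replicates thus placed a strong peak there, and their summits fell within 16 bp of each other. The region ranked 41 of 3537 shared regions by mean fold enrichment, in the top 1.16%, and 41, 68 and 42 among the 9852, 7439 and 9094 regions of the single replicates. Replicate 1 called a second, weaker summit 703 bp away (6.16-fold), which made its interval 1250 bp wide, against 665 and 492 bp in replicates 2 and 3. The next protein-coding gene on that side was MBIP, 122 kb from the summit. The lncRNA gene SFTA3, whose span overlaps that of NKX2-1, was 30.5 kb away.

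The other NKX2-1 regions were weak and were seen once each. One, 11.6 kb beyond the 3′ end and inside SFTA3, had a peak in replicate 1 (5.83-fold), and one 93.0 kb away had a peak in replicate 3 (5.00-fold). No region lay inside NKX2-1 or at its starts, and none upstream was assigned to it. The closest upstream region, 36.7 kb away, was nearer to NKX2-8 and had 7.60-fold in replicate 1, 6.63-fold in replicate 3 and no peak in replicate 2. Among 1802 other genes with exactly 1 shared region, those closest to NKX2-1 in mean fold enrichment over 3 replicates were RP1 (27.3 ± 2.7), GPC4 (27.8 ± 4.2) and FTO (27.1 ± 2.9), each with its region inside the gene.

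SHH, the secreted morphogen that patterns the ventral forebrain, had 1 shared region inside its span (chr7:155804245-155804766), 8.08 kb past the annotated start. Fold enrichment was 9.14, 12.6 and 6.48 in replicates 1, 2 and 3 (9.41 ± 3.07, SD, n = 3). The replicates differed more than at any other shared region of these genes, with a coefficient of variation of 32.6%, although all summits lay within 37 bp. The region ranked 1808 of 3537, in the middle of the shared regions. A weak region in replicate 1 alone (6.09-fold) lay 215 kb upstream, on the side of RNF32, in the 828 kb gene-poor stretch between the pair. Exons and introns were not annotated in the table used, so the position within SHH was not resolved further.

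NKX6-2, a homeodomain gene of ventral progenitors, had no region of its own. INPP5A, a phosphatase gene, reaches 300 bases into its span from one side, and 4 regions inside INPP5A lay 36.5 to 128 kb from NKX6-2. The closest had a peak in replicate 3 (6.94-fold). One 82.4 kb away had 10.0 and 5.34-fold in replicates 2 and 3 and no peak in replicate 1. The farthest had the highest mean fold enrichment, with 11.9 and 13.9-fold in replicates 2 and 3 and no peak in replicate 1. The closest shared one was 116 kb away, with 11.7, 9.45 and 8.33-fold in replicates 1, 2 and 3 (9.83 ± 1.72, SD, n = 3). It counted for NKX6-2 when regions were assigned by the nearest end of a gene. By that measure the pair were almost equally far, since the end of INPP5A lies 300 bases inside NKX6-2, 115.8 kb from the summit.

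The LIM homeodomain pair differed in occurrence of regions. LHX8, which in mice is needed for forebrain cholinergic neurons, had 3 regions, all inside the gene. The shared one (chr1:75135943-75136504) lay 1.89 kb past the second of its annotated starts and was weak but reproducible, with 5.76, 5.69 and 6.89-fold in replicates 1, 2 and 3 (6.11 ± 0.67, SD, n = 3). Its −log10 q values of 5.78, 4.96 and 7.61 were above the lists' minimum of 3.0, and its summits lay within 15 bp. By mean fold enrichment it ranked 3338 of 3537, near the weak end. The other regions were seen in replicate 1 alone, between its annotated starts (5.40-fold) and 12.4 kb past the second (6.09-fold).

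LHX6, which specifies cortical interneurons that express parvalbumin or somatostatin, had no region within 100 kb of its span. The closest was 103 kb away, nearest to TTLL11, and had a peak in replicate 2 alone (6.44-fold). The closest shared region was 600 kb away, nearest to PDCL (11.0 ± 4.2-fold, SD, n = 3). Its territory was short, between the close neighbours MORN5 and RBM18 at 2.50 and 8.67 kb, and the closest region on the other side was 236 kb away, inside OR1J2 (replicate 1 alone, 5.38-fold).

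The GBX homeobox pair, which marks parts of the medial eminence mantle in mice, had no shared region. GBX2, also known for the midbrain-hindbrain boundary and the thalamus, had 2 regions 10.5 and 11.9 kb upstream of its start. The farther one (chr2:236180139-236180550) had 7.71-fold in replicate 1, 5.84-fold in replicate 3 and no peak in replicate 2. The closer one had a peak in replicate 3 alone (5.02-fold). Both lay inside the lncRNA gene GBX2-AS1, and ASB18 was nearly as close to them, at 13.1 and 14.6 kb. A stronger region, 68.9 kb upstream of GBX2 and inside ASB18, had 9.62 and 11.2-fold in replicates 2 and 3 and no peak in replicate 1. Others within 100 kb, inside AGAP1 and ASB18, were seen once each (4.37 and 5.57-fold). The shared region closest to GBX2, nearest to DRC11, was 185 kb away (8.70 ± 1.83-fold, SD, n = 3). GBX1 had no region. A peak of replicate 1 lay 21.9 kb away inside AGAP3 (5.53-fold), and the closest shared region, nearest to PRKAG2, was 670 kb away (12.2 ± 0.5-fold, SD, n = 3).

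MAF, a basic leucine zipper factor that in mice supports the migration and number of medial eminence interneurons, was the regulator with a shared region at its start. The region (chr16:79600560-79600996) covered all 300 bases of the MAF window printed above. Fold enrichment was 11.8, 13.2 and 12.0 in replicates 1, 2 and 3 (12.3 ± 0.8, SD, n = 3), the smallest relative spread among the shared regions of these genes (coefficient of variation 6.41%, against a median of 19.5% over all shared regions). The summits lay 63, 59 and 73 bases before the annotated start. An ATTA stood 116 to 113 bases and a TAAT 109 to 106 bases before the start, so the summits were 43, 47 and 33 bases from the nearer core. The region ranked 826 of 3537. The start of a noncoding gene on the other strand, LOC101928230, lay 150 bases from that of MAF, and its occupancy cannot be told apart from that of MAF.

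**Figure D2:**
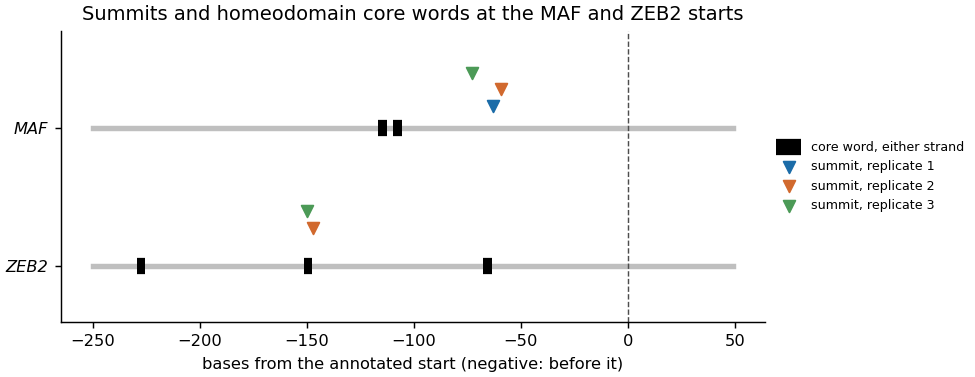
Start-site windows of MAF and ZEB2 along the direction of transcription (x axis, bases from the annotated start). Triangles mark the summit of each replicate with a peak and black blocks the core word on either strand. The 3 MAF summits lay 59 to 73 bases before the start, and the 2 ZEB2 summits 147 and 150 bases before it, at a core.

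A second shared MAF region lay 123 kb upstream (chr16:79723700-79723979), within the lncRNA gene LOC105371356, with 6.49, 8.49 and 11.7-fold in replicates 1, 2 and 3 (8.91 ± 2.65, SD, n = 3). These values spread more, with a coefficient of variation of 29.7%, and summits up to 57 bp apart. Within the long annotated span of MAF, 398 kb, there were 4 regions, none shared. Of these, 2 had peaks in replicates 1 and 2, with 5.85 and 7.92-fold at one, 339 kb from the start, and 9.30 and 7.27-fold at the other, 302 kb from it. The remaining 2 were seen once, at 4.62-fold in replicate 2 and 9.74-fold in replicate 3. A further upstream region, 320 kb away on the side of DYNLRB2, had a peak in replicate 2 (4.84-fold).

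ZEB2, a zinc finger and homeodomain repressor that in mice directs interneurons toward the cortex, had 18 regions, the most of the 9 genes. Counting ZEB2, 27 protein-coding genes had at least as many. The regions fell into a group at the gene and a group far upstream, with 539 kb between them. At the gene, 5 lay inside the span and 3 within 200 kb upstream, and none was shared. Beyond 600 kb upstream there were 10, of which 1 was shared, 4 had a peak in 2 replicates and 5 in 1. The next protein-coding gene on that side, ACVR2A, lay 3324 kb from ZEB2, so assignment there rests on distance alone.

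The shared ZEB2 region was 1163 kb upstream (chr2:145682493-145682969), with 18.7, 15.8 and 20.7-fold in replicates 1, 2 and 3 (18.4 ± 2.4, SD, n = 3). All 3 replicates gave high values, −log10 q was 44.3, 32.0 and 48.9, and the summits lay within 19 bp. It ranked 212 of 3537, in the top 5.99%. Its nearest annotated gene of any type, LOC105373664, was 50.9 kb away. A neighbour 1135 kb upstream had 12.2 and 9.67-fold in replicates 1 and 2 and no peak in replicate 3. Another, 681 kb upstream, had 6.65 and 12.9-fold in replicates 1 and 2 and no peak in replicate 3. The remaining far regions had mean fold enrichment of 8.49 or less.

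At the ZEB2 start a weak region (chr2:144520172-144520439) had 6.44-fold in replicate 2, 4.49-fold in replicate 3 and no peak in replicate 1. It shared 198 bases with the window printed above. Both summits, 147 and 150 bases before the start, lay at the ATTA that stands 151 to 148 bases before it, inside it in replicate 3 and 1 base from it in replicate 2. The lncRNA gene ZEB2-AS1 overlaps this position. Inside the gene, 15.0 kb past the start, a region had 8.20 and 6.78-fold in replicates 1 and 2. The strongest summits of these replicates lay 250 bp apart there, and replicate 1 called 2 summits. The other 4 regions inside the span were seen in 1 replicate each, with 5.26 to 9.03-fold. Upstream of the start, 123 kb away, a region had 7.11 and 6.41-fold in replicates 1 and 3.

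**Figure D3:**
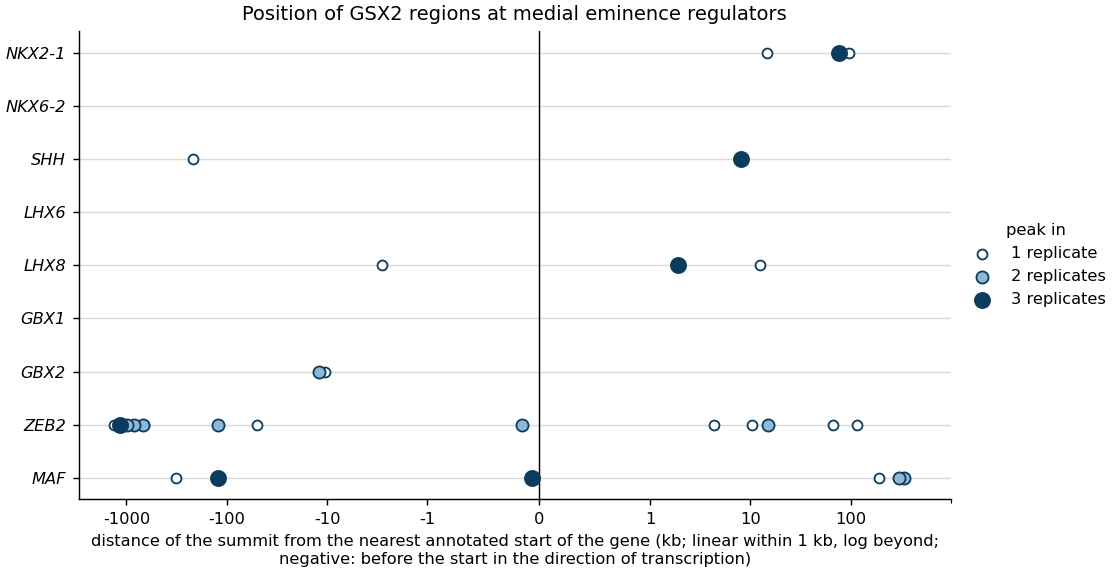
Each GSX2 region by the distance of its strongest summit from the nearest annotated start of its gene (x axis, kb, linear within 1 kb and logarithmic beyond, negative before the start), 1 row per gene, with fill and size for the number of replicates with a peak. The ZEB2 regions formed a far upstream group, MAF had a shared region at its start, and NKX6-2, LHX6 and GBX1 had none.

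**Figure D4:**
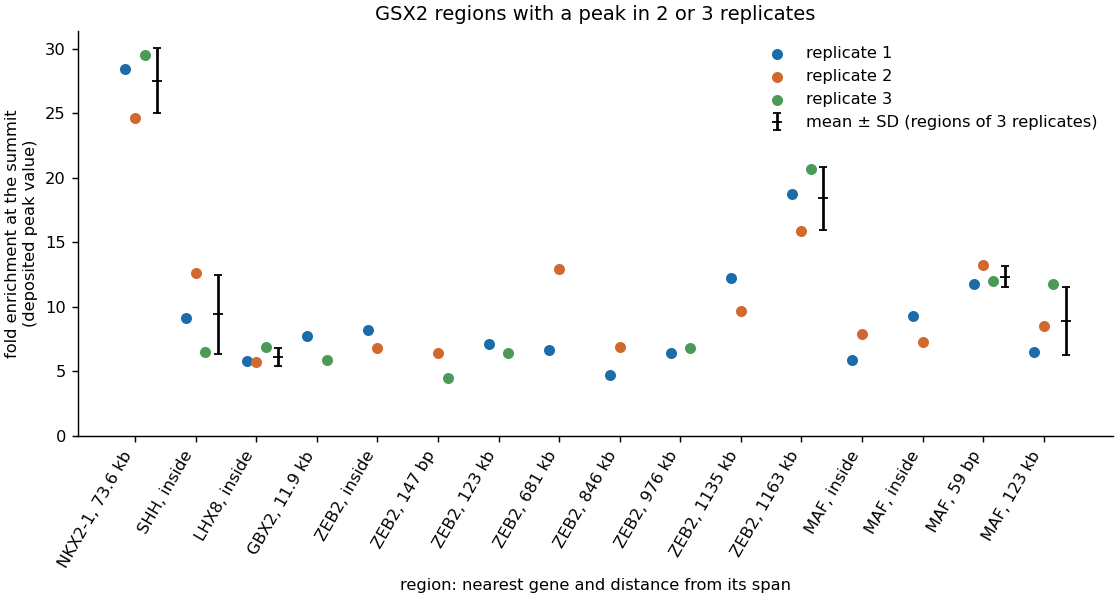
Fold enrichment of the summit (y axis, the deposited peak value) in each replicate for the 16 regions with a peak in 2 or 3 replicates, with mean ± SD for the 6 shared ones. The NKX2-1 region (24.7 to 29.5) and the far ZEB2 region (15.8 to 20.7) stood above the others, and the LHX8 region was the lowest shared one.

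Set side by side, the shared regions ran from 27.5-fold at NKX2-1 through 18.4 at ZEB2, 12.3 at the MAF start, 9.41 in SHH and 8.91 upstream of MAF to 6.11 in LHX8. The replicate values did not overlap between NKX2-1 and ZEB2, between ZEB2 and the MAF start, or between the MAF start and LHX8. The MAF start was also above the SHH region and the upstream MAF region in each replicate, and the upstream MAF region was above LHX8 in each, although some of these ranges overlap or nearly touch. SHH was above the upstream MAF region and LHX8 in replicates 1 and 2 and below both in replicate 3, so its place among them is not resolved. The median over the 6 was 10.9, against 9.49 over all shared regions. By replicate it was 10.5, 12.9 and 11.9, against 9.64, 9.24 and 9.45 over all shared regions. The median was 6.83 for regions of 2 replicates and 5.88 for those of 1, against 7.18 and 6.21 over all regions of these kinds.

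**Figure D5:**
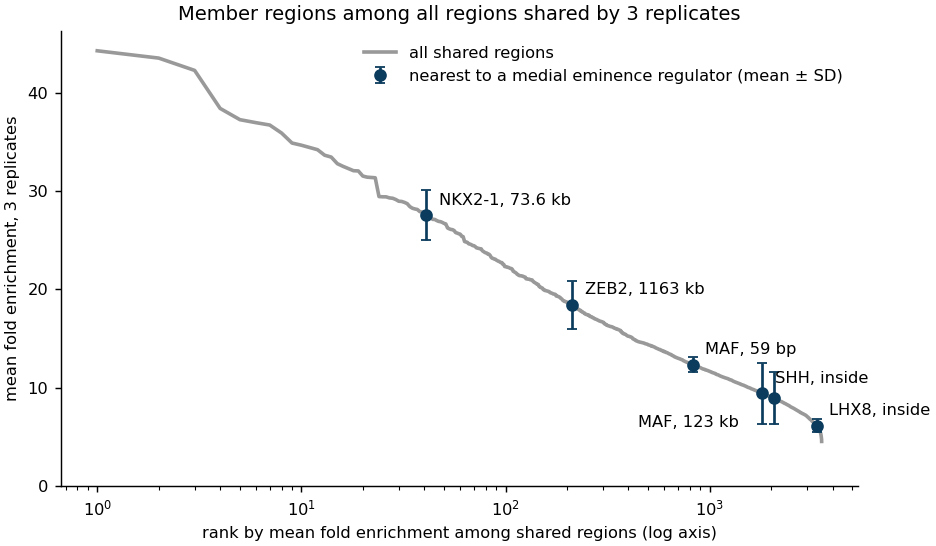
Mean fold enrichment over 3 replicates (y axis) against rank (x axis, log scale) for all 3537 shared regions (line) and for the 6 nearest to a medial eminence regulator (points, mean ± SD). They spread over the whole range, between rank 41 at NKX2-1 and rank 3338 at LHX8.

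By location, 13 of the 35 regions lay inside the span of their gene (37.1%, against 50.9% of all regions) and 14 were more than 100 kb away (40.0%, against 20.8%), of which 10 were the far ZEB2 group. Of the 6 shared ones, 2 were inside their gene, those of SHH and LHX8 (33.3%, against 51.3% of all shared regions). Another 2 were more than 100 kb away (33.3%, against 20.6%). All 13 ZEB2 regions outside the span, and those of MAF, SHH and GBX2 outside theirs, were upstream, while those of NKX2-1 were downstream. The assignment rule largely sets these sides at ZEB2, SHH and NKX2-1, and sets the side fully at MAF. The protein-coding gene WWOX overlaps the 3′ end of the MAF span, so no sequence downstream of the span could be assigned to MAF. Upstream of MAF the gap to DYNLRB2 was 940 kb. At GBX2 the gaps to the next protein-coding gene were similar, 25.1 kb upstream and 29.5 kb downstream. The gap to the next protein-coding gene was 3324 kb upstream and 51.0 kb downstream of ZEB2, 828 kb upstream and 18.5 kb downstream of SHH, and 59.8 kb upstream and 196 kb downstream of NKX2-1.

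Genes of medial eminence cell types, of the ventral midline and of the Hedgehog pathway were read in the same peak lists. Among 16 genes of medial eminence interneurons, 6 had a shared region (37.5%, against 12.3% of protein-coding genes). ERBB4, the neuregulin receptor of migrating interneurons, had 7, the strongest inside the gene with 26.9, 18.5 and 17.7-fold in replicates 1, 2 and 3 (21.0 ± 5.1, SD, n = 3). SOX6, a factor for their maturation, had 5 (strongest 11.1 ± 1.0-fold, inside the gene). LMO3, a LIM-only cofactor gene, had 4 (strongest 14.9 ± 3.3-fold, 583 kb away). NXPH1, which encodes a secreted ligand of neurexins, had 1 inside the gene (8.03 ± 1.77-fold).

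Among 10 genes of pallidal and cholinergic neurons and the ventral midline, 4 had a shared region (40.0%, against 12.3% of protein-coding genes). They were NGFR, the low-affinity neurotrophin receptor (12.3 ± 3.5-fold, inside the gene), ZIC1 (10.4 ± 1.0-fold, 529 kb away, the strongest of 4), FGF8, a midline signal (8.48 ± 1.39-fold, inside the gene), and ISL1, a LIM homeodomain factor of cholinergic and striatal neurons (8.24 ± 0.87-fold, 6.06 kb away).

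Among 14 Hedgehog pathway genes apart from SHH, 4 had a shared region (28.6%, against 12.3% of protein-coding genes). Of the 15 regions, 11 were at GLI3, a transducer that acts largely as a repressor. Its strongest, inside the gene, had 20.6, 11.5 and 23.6-fold in replicates 1, 2 and 3 (18.5 ± 6.3, SD, n = 3). CDON, a co-receptor of SHH (9.49 ± 0.34-fold), and SUFU, an inhibitor of GLI proteins (8.33 ± 1.38-fold), had 1 each, inside the gene. PTCH1, the SHH receptor, had 2, the strongest inside the gene (6.50 ± 1.52-fold). Per Mb of territory, the 9 regulators had 1.66 shared regions and these lists 1.91, 3.27 and 3.75, in the order given. Over all protein-coding genes it was 1.17. The joint territories of these lists were 9.92, 2.14 and 4.00 Mb, and the median territory of a protein-coding gene was 54.7 kb. Territory and number of genes differ between the lists, and no test of their difference was made.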

How the data were processed

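The authors deposited 1 narrow-peak list for each of 3 ChIP replicates. The submitters' processing notes name the build hg38 and the tools MACS3, Bowtie2, SAMtools, Trim Galore and deepTools. Settings and the peak caller's control were not given in the sources used here. In the deposited lists, fold enrichment is a linear ratio at the summit, and significance is −log10 p and −log10 q, with a smallest −log10 q of 3.0. The deposited score, 10 times the −log10 q, was not used. Depth is unknown.

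Intervals on chromosomes 1 to 22 and X were reduced to their summit of highest fold enrichment, merged over replicates by 1 bp overlap, and assigned to the nearest of 19974 RefSeq protein-coding spans (GRCh38.p14) by the strongest summit, the shorter span where several held it. Territories end midway between neighbouring spans. Merging and assignment were tested on simulated lists. Python 3.11.15, pandas 2.3.3 and SciPy 1.17.1 were used. Strand and starts came from the RefSeq promoter table, which gave no window for NKX6-2.

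The 9 genes and the lists were chosen with earlier results of these data known. All 9 were named whatever their values, with up to 5 genes of each other list by their strongest shared region, flanking genes, and the 3 genes most like NKX2-1 in number and strength of shared regions. One gene that this rule picks from the interneuron list is not reported here, though the counts of that list include it. Genes added for orientation, such as lncRNA genes and nearest genes of outlying regions, were named after their values were seen. With 1 group, no test between conditions was made. Alternatives covered the peak threshold, overlap, assignment, distance, number of replicates and each replicate left out.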

Additional observations from a re-analysis of the deposited data

How the results depend on the processing

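The number of regions at these genes depended on the peak threshold and on the assignment. With peaks of −log10 q of at least 10, 14 regions remained, of which 3 were shared, at 3 genes (NKX2-1, ZEB2 and MAF), with a median fold enrichment of 18.4. The shared were 21.4% of the regions, against 27.6% of all regions, and 7.75% of protein-coding genes had a shared region at this threshold. With assignment to the nearest gene of any type, 13 regions were left, 3 of them shared, at SHH, LHX8 and MAF (3 genes, median 9.41-fold), since noncoding genes stood nearer to the others. That was 23.1% of these regions, against 22.5% of all regions. Within 100 kb there were 21 regions. With peaks in at least 2 replicates, 16 regions (45.7%, against 45.1% of all regions) and 6 genes counted as shared (median 7.89-fold). So did 8 of the 14 Hedgehog genes apart from SHH, and 20.2% of protein-coding genes. In the other lists it was 7 of 16 interneuron genes, and 5 of 10 genes of pallidal and cholinergic neurons and the ventral midline. With 1 replicate left out there were 27 to 30 regions, 7 to 12 of them shared, at 5 to 6 genes, with a median of 7.81 to 10.1-fold. Over the genome, 14.4 to 16.4% of protein-coding genes then had a shared region. The 12 came without replicate 3, when 44.4% of the regions were shared, against 35.8% of all regions. The share was 23.3% without replicate 1 and 31.0% without replicate 2, against 36.5% and 37.7%. The fold enrichment of a region cannot change with the overlap or assignment setting and moves little when 1 of 3 replicates is dropped, so those values say nothing of stability. No shared region was left for NKX2-1 and ZEB2 with genes of any type, for ZEB2 within 100 kb, or for SHH and LHX8 at the stricter threshold. With genes of any type, the shared NKX2-1 region passed to SFTA3, whose span overlaps that of NKX2-1. By the nearest gene end, NKX6-2 gained a shared region. Settings for the other lists and for single genes were added after seeing the data.

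No paired analysis was possible because the lists come from 1 group, with no values of the input libraries to pair. Without read counts, a peak absent from a list cannot be told apart from one under the threshold at that depth, and with 3 replicates the SDs are imprecise.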

Other observations

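Noncoding genes stood near many regions of the medial eminence regulators, most of them at ZEB2. At 22 of the 35 regions (62.9%) a RefSeq gene of another type stood nearer to the summit than the protein-coding one, or held it as the shorter span, against 40.2% of all regions. The 22 include all 13 ZEB2 regions outside its span, and without ZEB2 it was 9 of 17 (52.9%). At 11 regions (31.4%) the summit lay inside a lncRNA gene assigned in this way, against 15.7% of all regions, among them SFTA3 at NKX2-1, LHX8-AS1 at LHX8, GBX2-AS1 at GBX2 and ZEB2-AS1 at ZEB2. Of these 11, 1 was shared, the region 123 kb upstream of MAF (9.09%, against 22.0% of the 2469 regions inside a lncRNA gene over the genome).

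Replicate 3 was the one most often missing where these genes had a peak in 2 replicates. It lacked the peak at 6 of 10 such regions (60.0%), against 28.7% of the 3568 regions of this kind over the genome, while replicate 2 lacked it at 3 of 10 (30.0%, against 46.2%) and replicate 1 at 1 of 10 (10.0%, against 25.1%). The 6 were 4 of ZEB2 and 2 of MAF. The difference was not tested.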
